A study of Homo sapiens with 6 samples.

Results

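The TAM family comprises the receptor tyrosine kinases AXL, TYRO3 and MERTK, described here with their ligands GAS6 and PROS1. These 5 genes were taken by symbol from a table of 58870 genes, and each matched exactly 1 row. Transcripts were measured by RNA sequencing in WM164, an established human melanoma cell line kept in RPMI with fetal bovine serum and antibiotics, in 3 libraries of cells overexpressing GFP and 3 libraries of cells overexpressing T-MGM. The label T-MGM is read here as the tethered dimer of the study's methods, in which the melanoma isoform of MITF, the master regulator of the melanocyte lineage, is fused through a flexible linker to MAFG, a small MAF transcription factor. The study's methods describe lentiviral vectors with an EF1α promoter and a blasticidin marker, and the sources do not state whether each group was a pool or 1 clone. All groups therefore carried a vector and came from 1 cell line.

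TAM receptors sit at the cell surface and are switched on by GAS6 or protein S (encoded by PROS1), which bridge the receptor to phosphatidylserine exposed on membranes of dying cells. Signalling passes through PI3K, Src family kinases and adaptor proteins, and in phagocytes it drives the engulfment of dying cells and dampens inflammation. In melanoma, high AXL marks dedifferentiated cell states, whereas TYRO3 and MERTK are also expressed in melanocytic cells.

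Total counts ranged from 35057239 to 38738065 in GFP libraries and from 44577774 to 59250663 in the libraries labelled T-MGM, so a count of 3 corresponded to between 0.0506 and 0.0856 CPM (the count scaled to the library total). Neither gene of the construct set the libraries labelled T-MGM apart: MAFG did not pass, at -0.06 (SE 0.04; DESeq2 adjusted p of 0.236), and MITF rose by only 0.08 (SE 0.02; DESeq2 adjusted p of 4.8e-07) on the log2 scale. Whether reads of the construct were counted was not tested. All 8 markers of the melanocyte lineage were detected, at a summed 134700 to 135500 normalized counts in GFP and 132500 to 135600 in T-MGM libraries. The similar sums cover markers that moved in opposite directions in DESeq2. The melanin synthesis enzyme gene DCT fell by 2.49 on the log2 scale, with means of 11460 ± 126 in GFP and 2050 ± 88.8 in T-MGM (normalized counts, SD, n = 3 each), and MLANA fell by 0.68, TYR by 0.35 and S100B by 0.21. S100A1 rose by 0.70, and MITF, SOX10 and PMEL differed by 0.05 to 0.11 on the log2 scale. The part of these markers in the TAM results was not tested.

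AXL was the member with the largest measured increase, MERTK rose by a smaller amount, TYRO3 did not pass the test, PROS1 fell modestly and GAS6 was close to absent. Of the 4 members that received an adjusted p, AXL and MERTK were called, meaning a DESeq2 adjusted p at or under 0.05 with a change over 2-fold, both upwards. Across all 19135 genes tested, 4.63% were called and 3.26% were called upwards. With PROS1, 3 of the 4 members passed the adjusted p alone, against 38.4% of all genes tested (19.2% higher and 19.2% lower). In normalized counts (counts divided by DESeq2 size factors) these 3 genes and TYRO3 had separate ranges in GFP and T-MGM, as had 46.8% of genes tested. These 4 members each had a mean normalized count of at least 50. Among all genes tested at that level, 54.0% passed the adjusted p and 3.21% were called.

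**Figure D1:**
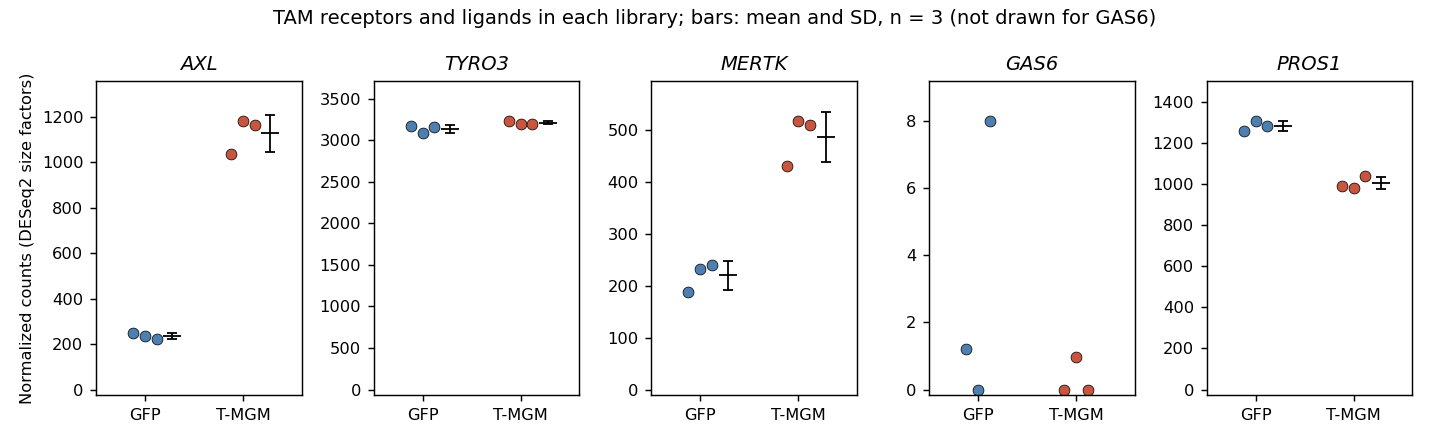
Normalized counts (vertical axes, 1 scale per gene, starting at 0) of the 5 genes in the 3 GFP libraries (blue) and the 3 libraries labelled T-MGM (red), with mean and SD drawn beside the points except for GAS6. AXL and MERTK are higher in every T-MGM library, PROS1 is lower in every T-MGM library, TYRO3 stays between 3084 and 3230, and GAS6 is close to 0.

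AXL (ENSG00000167601.12; GRCh38 chromosome 19, 41219223 to 41261766, plus strand, 20 exons in its canonical transcript) encodes the receptor used as a marker of dedifferentiated melanoma. GFP replicates 1 to 3 had 249, 235 and 223 normalized counts, and the T-MGM replicates had 1034, 1180 and 1165. Every T-MGM library was therefore above every GFP library, and within T-MGM replicate 1 was the lowest. The means were 236 ± 13.4 and 1126 ± 80.4 (SD, n = 3 each), a 4.78-fold increase with 95% limits of 4.23 and 5.40 (2.26 on the log2 scale, SE 0.09; adjusted p of 2.19e-136 in DESeq2). Among the 214 called genes that were higher and had a mean normalized count of at least 100, AXL ranked 35 by fold change. On the scale of log2(TPM + 1), which compresses changes of low genes, the AXL change was 1.41 and still passed (limma adjusted p of 5.4e-05). The 283 genes within 10 Mb of AXL had a median log2 fold change of 0.09, where the median of all genes was -0.01. The annotated gene on the opposite strand inside AXL, AC011510.1, had at most 3 counts in any library.

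MERTK (ENSG00000153208.16; chromosome 2, 111898607 to 112029561, plus strand, 19 exons) encodes the receptor best known for clearance of dying cells by phagocytes and of photoreceptor debris in the retina. GFP replicates 1 to 3 held 188, 232 and 239 normalized counts against 430, 516 and 509 for T-MGM. The lowest T-MGM library lay well above the highest GFP library, and replicate 1 was the lowest of its group in both conditions. The means of 220 ± 27.3 and 485 ± 48.0 (SD, n = 3 each) gave a 2.21-fold increase with 95% limits of 1.88 and 2.59 (1.14 on the log2 scale, SE 0.12; adjusted p of 9.12e-21 in DESeq2). The 61 neighbouring genes within 10 Mb had a median log2 fold change of -0.23. The change in MERTK passed the test in every alternative, but shrinkage brought it below 2-fold (0.95 on the log2 scale), as did the TPM scale (0.63 and 0.93 with pseudocounts of 1 and 0.1).

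TYRO3 (ENSG00000092445.12; chromosome 15, 41557675 to 41583589, plus strand, 19 exons) encodes the TAM receptor that is prominent in the nervous system and in melanocytic cells. The 3 GFP libraries held 3171, 3084 and 3160 normalized counts, and the 3 T-MGM libraries 3230, 3198 and 3201. The groups did not overlap, yet the distance between them was small against their level. The means were 3138 ± 47.6 and 3210 ± 17.3 (SD, n = 3 each), and the difference did not pass (0.03 on the log2 scale, SE 0.03; adjusted p of 0.492 in DESeq2), with 95% limits of a 0.978-fold and a 1.07-fold change. Its sign turned with total-count scaling (-0.021) and after correction for GC content and length (-0.011), and in TPM it was 0.166, at which the median gene was at -0.13 (limma adjusted p of 0.0623). The related pseudogene TYRO3P had 34 to 61 counts in any library, against 2644 to 4338 counts for TYRO3.

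The 3 receptors did not move alike. Within each library, the log2 ratio of AXL to TYRO3 was -3.74 ± 0.08 in GFP and -1.51 ± 0.11 in T-MGM (SD, n = 3 each), a difference of 2.22. The ratio of MERTK to TYRO3 differed by 1.11 and that of AXL to MERTK also by 1.11 on the log2 scale. AXL exceeded MERTK by 0.41, 0.02 and -0.10 in GFP replicates 1 to 3 and by 1.27, 1.19 and 1.19 in T-MGM replicates, so the spread was wider in GFP. For each of the 3 pairs the groups did not overlap, and the exact 2-sided permutation test gave its smallest possible p of 0.1 (0.1 after Benjamini-Hochberg adjustment over 3 pairs), so this test could not reach 0.05 with 3 libraries per group.

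The sequences before RefSeq starts of the receptor genes are shown because AXL and MERTK rose while TYRO3 did not pass. E-boxes (CANNTG, with CACGTG and CATGTG preferred by MITF) and the Maf recognition core TGCTGA are letters known for the factors discussed here. The AP-1-like letters TGANTCA were also searched, with any base in the middle, which is looser than an AP-1 site. Each run holds the 250 bases before a RefSeq start (GRCh38.p14), read on the strand of the gene, and capitals mark matches on either strand. For AXL, RefSeq holds 1 start at the gene's 5′ end and another inside the gene; none of the windows shown overlaps an exon of GENCODE release 44. TYRO3 also has another start, whose window held 1 E-box and is not shown. Both TYRO3 windows lie inside the gene, which begins at 41557675 in GENCODE release 44, and not before its 5′ end.
AXL, 5′ start, chr19:41218973-41219222, plus strand: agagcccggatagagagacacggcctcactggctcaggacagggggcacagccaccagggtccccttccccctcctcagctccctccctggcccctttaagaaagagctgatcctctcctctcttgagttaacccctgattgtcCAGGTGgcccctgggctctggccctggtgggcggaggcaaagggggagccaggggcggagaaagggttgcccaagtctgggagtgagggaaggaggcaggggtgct
AXL, internal start, chr19:41226505-41226754, plus strand: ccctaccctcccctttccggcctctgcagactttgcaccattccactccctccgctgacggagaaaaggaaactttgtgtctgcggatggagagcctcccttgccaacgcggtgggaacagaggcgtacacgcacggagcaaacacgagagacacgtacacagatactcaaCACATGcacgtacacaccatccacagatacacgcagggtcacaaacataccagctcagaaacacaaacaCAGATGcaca
MERTK, chr2:111898357-111898606, plus strand: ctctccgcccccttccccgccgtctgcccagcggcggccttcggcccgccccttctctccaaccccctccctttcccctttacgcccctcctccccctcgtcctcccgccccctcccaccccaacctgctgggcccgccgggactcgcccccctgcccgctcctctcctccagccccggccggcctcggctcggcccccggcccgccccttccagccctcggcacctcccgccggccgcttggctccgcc
TYRO3, chr15:41558962-41559211, plus strand: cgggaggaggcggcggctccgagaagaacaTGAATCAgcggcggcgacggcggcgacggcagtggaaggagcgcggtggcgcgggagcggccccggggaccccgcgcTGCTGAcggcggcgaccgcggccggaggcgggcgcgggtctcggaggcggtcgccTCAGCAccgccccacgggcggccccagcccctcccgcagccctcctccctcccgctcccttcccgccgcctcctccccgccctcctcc

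Base composition differed between these windows, with 64.4% GC upstream of the 5′ start of AXL, 78.8% for MERTK and 80% for TYRO3. The 5′ window of AXL held 1 E-box, CAGGTG, 106 to 101 bases before the start. The window of the internal start held CACATG, which reads CATGTG on the other strand, 79 to 74 bases before it, and CAGATG close to it. None of the searched letters was found in the MERTK window. The TYRO3 window shown, which lies inside the gene, held 2 Maf cores and 1 match to TGANTCA. That match reads TGAATCA, with A in the middle, and is not counted here as an AP-1 site. Over 35116 windows of the same length, 61.8% held an E-box, 14.02% the Maf core, 9.42% CATGTG, 6.57% TGANTCA and 6.34% CACGTG. The MITF boxes are also counted as E-boxes. These matches describe letters only, and binding was not measured in these libraries.

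Levels were compared between genes in the deposited TPM values, which are scaled for transcript length. In GFP libraries the order was TYRO3 at 13.1 ± 0.03, PROS1 at 8.01 ± 0.38, MERTK at 1.27 ± 0.06, AXL at 1.06 ± 0.08 and GAS6 at most 0.07 TPM (SD, n = 3). In T-MGM libraries TYRO3 was again highest at 14.9 ± 1.13 TPM, followed by PROS1 at 5.61 ± 0.15, AXL at 4.48 ± 0.29 and MERTK at 2.52 ± 0.35, with GAS6 at most 0.01. AXL thus lay below MERTK in all 3 GFP libraries (0.97 to 1.12 against 1.21 to 1.32 TPM) and above it in all 3 T-MGM libraries (4.16 to 4.71 against 2.12 to 2.77 TPM). No neighbours in either order overlapped in their range over libraries.

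AXL made up 7.14%, 7.21% and 6.28% of the summed receptor TPM in GFP replicates 1 to 3, whereas T-MGM replicates had 18.5%, 21.6% and 21.4%. Its mean share was 6.88% ± 0.52 and 20.5% ± 1.72 (SD, n = 3 each). The share of TYRO3 was 84.9% ± 0.32 in GFP and 67.9% ± 3.55 in T-MGM, so TYRO3 was the most abundant TAM receptor transcript in all 6 libraries. MERTK accounted for 8.21% ± 0.35 and 11.6% ± 1.83. Summed receptor levels were 15.4 to 15.5 TPM in GFP and 21.4 to 22.5 TPM in T-MGM libraries. None of these shares overlapped between the groups, at the smallest p of 0.1 that an exact 2-sided permutation test allows.

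**Figure D2:**
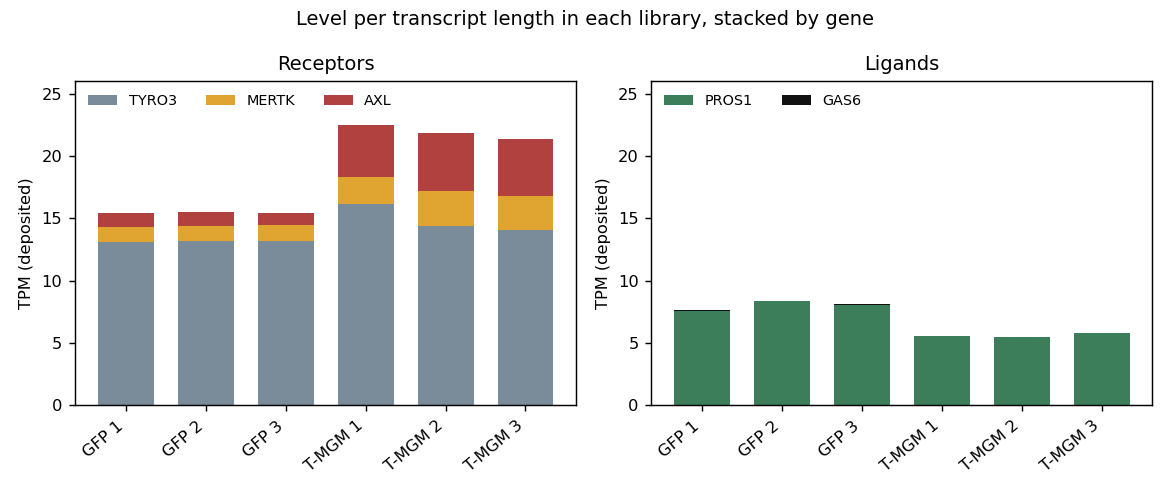
Deposited TPM (vertical axis, starting at 0) of the receptors, stacked in the left panel, and of the ligands, stacked in the right panel, in each of the 6 libraries. TYRO3 makes up most of every receptor bar, the AXL segment grows from about 1.06 to about 4.48 TPM on average, and the ligand bars consist of PROS1 in all libraries.

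PROS1 (ENSG00000184500.15; chromosome 3, 93873051 to 93980003, minus strand, 15 exons) encodes protein S, a vitamin K-dependent plasma protein that serves both as a cofactor of anticoagulation and as a ligand of TYRO3 and MERTK. Normalized counts in GFP libraries were 1262, 1307 and 1282, and those in T-MGM libraries 993, 983 and 1040. All T-MGM libraries were below all GFP libraries, with little spread in either group. The means were 1283 ± 22.7 and 1006 ± 30.4 (SD, n = 3 each), a change to 0.784-fold with 95% limits of 0.727 and 0.846 (-0.35 on the log2 scale, SE 0.06; adjusted p of 2.57e-09 in DESeq2). PROS1 passed the adjusted p in every alternative but was under 2-fold in each, between -0.51 and -0.20 on the log2 scale. The 34 genes within 10 Mb of PROS1 had a median log2 fold change of -0.19. The part of this regional value in the result was not tested. After correction for GC content and length the change was -0.20 (DESeq2 adjusted p of 0.00111).

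GAS6 (ENSG00000183087.15; chromosome 13, 113820549 to 113864076, minus strand) encodes the ligand with affinity for all TAM receptors. GFP replicates 1 to 3 had 1, 0 and 7 counts and the T-MGM replicates 0, 1 and 0, so 7 of the 8 counts in GFP came from replicate 3. The highest library had 0.190 CPM, and DESeq2 gave GAS6 no adjusted p. The ratio of pooled CPM, T-MGM over GFP, was 0.0912 with an exact 95% interval of 0.00206 to 0.68, which covers counting error only and leaves out the spread between libraries, so these counts are too few to compare the groups. GAS6-AS1, which overlaps GAS6 on the opposite strand, had 1 to 9 counts, and reads of the pair cannot be told apart without strand information.

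The ligands and receptors moved in opposite directions in sum. GAS6 and PROS1 together amounted to 0.494, 0.538 and 0.528 of the summed receptor TPM in GFP libraries, whereas the T-MGM ratios were 0.249, 0.251 and 0.270. On the log2 scale the ratio was -0.945 ± 0.06 and -1.963 ± 0.07 (SD, n = 3 each), lower by 1.02 in T-MGM, without overlap (exact 2-sided permutation p of 0.1, the smallest possible).

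**Figure D3:**
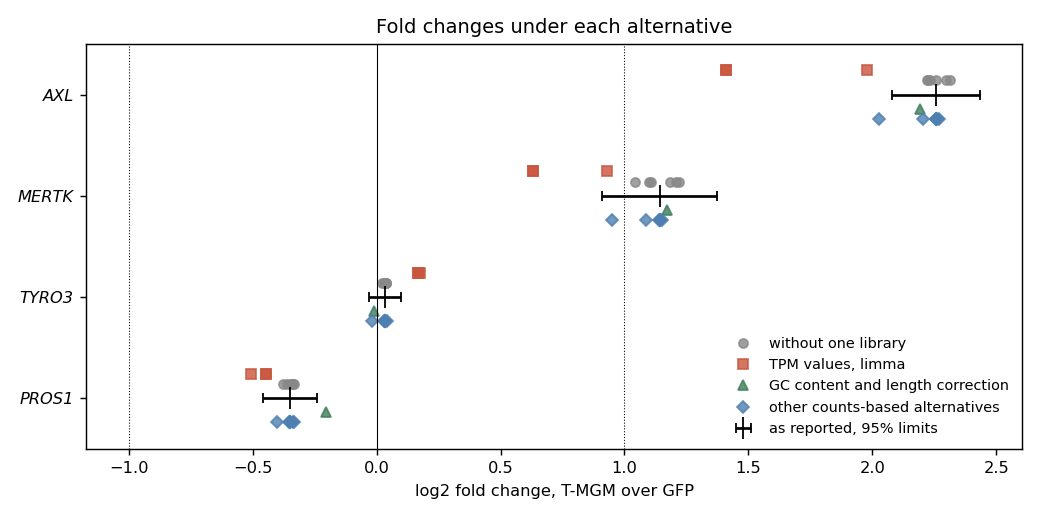
Log2 fold change of T-MGM over GFP (horizontal axis) for 4 genes as reported (black, with 95% limits from the DESeq2 SE) and under each alternative (symbols by kind); dotted lines mark a 2-fold change. AXL lies above 1 throughout, MERTK falls to 0.63 on the TPM scale, TYRO3 stays near 0 and PROS1 lies between -0.51 and -0.20.

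Other cell types that express TAM receptors were examined by their markers. Of the 6 macrophage and leukocyte markers, PTPRC, CD163 and TYROBP had at most 2 counts in any library. CD14 had at most 7 counts, with overlapping groups. CSF1R had 0, 4 and 3 counts in GFP against 5, 10 and 12 in T-MGM. Its normalized counts did not overlap, but the difference did not pass (DESeq2 adjusted p of 0.251). The summed level of the 6 markers was 738 to 794 normalized counts in GFP and 942 to 1175 in T-MGM. It consisted almost entirely of CD68, a lysosomal protein that other cells also express. CD68 was itself higher in T-MGM, by 0.45 on the log2 scale (DESeq2 adjusted p of 8.75e-08). The 5 fibroblast markers were all above 3 counts in some library and summed to 343 to 353 normalized counts in GFP and 580 to 658 in T-MGM. Most of that sum was LUM, which rose from 304 ± 16.8 to 516 ± 29.4 (SD, n = 3 each; DESeq2 adjusted p of 1.47e-13), and 2 further markers also passed. COL1A1 rose from 16 to 29 counts in GFP libraries to 58 to 82 in T-MGM libraries (1.23 on the log2 scale; adjusted p of 0.000608 in DESeq2). PDGFRB had 11, 15 and 2 counts against 16, 25 and 58, with overlapping normalized counts (1.37 on the log2 scale; adjusted p of 0.0482 in DESeq2). COL1A2 had at most 5 and DCN at most 10 counts. The part of these markers in the AXL and MERTK results was not tested. In bulk RNA, more cells of a type and more RNA per cell cannot be told apart.

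Genes that work with TAM receptors were then described in 8 lists with 87 genes. Of these, 79 received an adjusted p, 29 rose, 26 fell and 24 did not pass, with a median log2 fold change of 0.00. Passing genes were 69.6% of those tested, but most list members were well expressed: at a mean normalized count of at least 50 the share was 72.0% in the lists and 54.0% over all genes. In all, 6 genes were called, or 7.59%, against the 4.63% given above for all genes, and at a mean of at least 50 the shares were 6.67% in the lists and 3.21% over all genes. The balance between directions depended on the unit, since on the log2(TPM + 1) scale, where the median gene was at -0.13, 14 list genes rose and 29 fell. No called list gene reached 2-fold on that scale: TUB (0.93), LYN (0.94), ADGRB1 (0.86) and XKR8 (-0.81) still passed the adjusted p in limma, APH1B did not, and EDIL3 was below the TPM minimum.

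Ligand maturation requires carboxylation by vitamin K-dependent enzymes and removal of a propeptide. In this list 3 of 6 genes rose and 2 fell, all by less than 2-fold. FURIN, a propeptide-cleaving protease, rose from 4747 ± 39.5 to 6945 ± 94.5 normalized counts (log2 fold change 0.55, DESeq2 adjusted p of 1.09e-102). VKORC1, which regenerates reduced vitamin K, rose by 0.30 on the log2 scale but did not pass on the log2(TPM + 1) scale (limma adjusted p of 0.0944). Among other proteins reported as TAM ligands, TUB rose from 11 to 21 counts in GFP libraries to 226 to 299 counts in T-MGM libraries, a 13.7-fold change with 95% limits of 9.51 and 19.9 (DESeq2 adjusted p of 1.1e-42). Its TPM remained low, at most 0.07 in GFP and between 0.91 and 1.12 in T-MGM libraries. LGALS3, which encodes galectin-3, fell by 0.33 on the log2 scale, and TULP1 had no count.

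Receptor shedding is carried out by ADAM10 and ADAM17, which did not pass (DESeq2 adjusted p of 0.058 and 0.756), and the remaining stub is cut by γ-secretase. Of the 8 genes in this list 3 rose and 1 fell. APH1B, a γ-secretase subunit, rose to 113 ± 11.9 normalized counts from 18.7 ± 8.42 (SD, n = 3 each; 2.58 on the log2 scale, SE 0.31; adjusted p of 5.32e-16 in DESeq2). In TPM its groups overlapped, at 0.24, 0.55 and 0.08 for GFP against 0.54, 0.68 and 0.43 for T-MGM, and the change of 0.28 on the log2(TPM + 1) scale did not pass (limma adjusted p of 0.189). PSENEN rose by 0.48, and APH1A, the paralog of APH1B, fell by 0.38 on the log2 scale from 1955 ± 15.6 to 1503 ± 43.6 normalized counts (SD, n = 3 each).

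Downstream adaptors, kinases and feedback regulators moved in both directions, with 7 of 26 genes higher, 12 lower and a median log2 fold change of -0.11. LYN, a Src family kinase, was the called gene of this list, rising to 1203 ± 43.0 normalized counts from 428 ± 54.2 (SD, n = 3 each; log2 fold change 1.49, DESeq2 adjusted p of 2.01e-78). SOCS3, a feedback inhibitor of cytokine signalling, rose by 0.60 on the log2 scale. PIK3R1, the regulatory subunit of PI3K that docks on activated receptors, fell by 0.61 on the log2 scale, from 2871 ± 118 to 1883 ± 130 normalized counts.

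No gene of the engulfment machinery was called. In that list 2 of 9 tested genes rose and 3 fell, among them the scavenger and engulfment receptor LRP1 at 0.59, the adaptor GULP1 at -0.43 and the adaptor CRK at -0.31 on the log2 scale. Genes of phosphatidylserine exposure and of other bridging proteins or engulfment receptors included 8 that rose and 3 that fell of 13 tested. XKR8, a scramblase that exposes phosphatidylserine in apoptotic cells, had 90, 101 and 88 counts in GFP libraries and 4, 6 and 7 in T-MGM libraries, a fall by 4.44 on the log2 scale (SE 0.42; adjusted p of 1.31e-24 in DESeq2). ADGRB1, a phosphatidylserine receptor also known as BAI1, rose 2.55-fold to 1164 ± 33.4 normalized counts, and the integrin gene ITGB5 rose by 0.68 on the log2 scale. EDIL3, a bridging protein named here after its values were seen because it was also called, rose from 14.6 to 53.6 mean normalized counts.

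Of the 6 anticoagulant partners of protein S, 4 had at most 3 counts in every library and the others, PROCR and TFPI, did not pass. Among 13 transcription factors reported to act at the AXL promoter, 5 rose and 4 fell, all by less than 2-fold. JUN and FOSL1, subunits of AP-1, rose by 0.70 and 0.66 on the log2 scale, FOSL1 from 7842 ± 103 to 12406 ± 119 normalized counts (SD, n = 3 each; DESeq2 adjusted p of 1.17e-234), and MZF1, at 0.36, did not pass on the log2(TPM + 1) scale (limma adjusted p of 0.151).

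**Figure D4:**
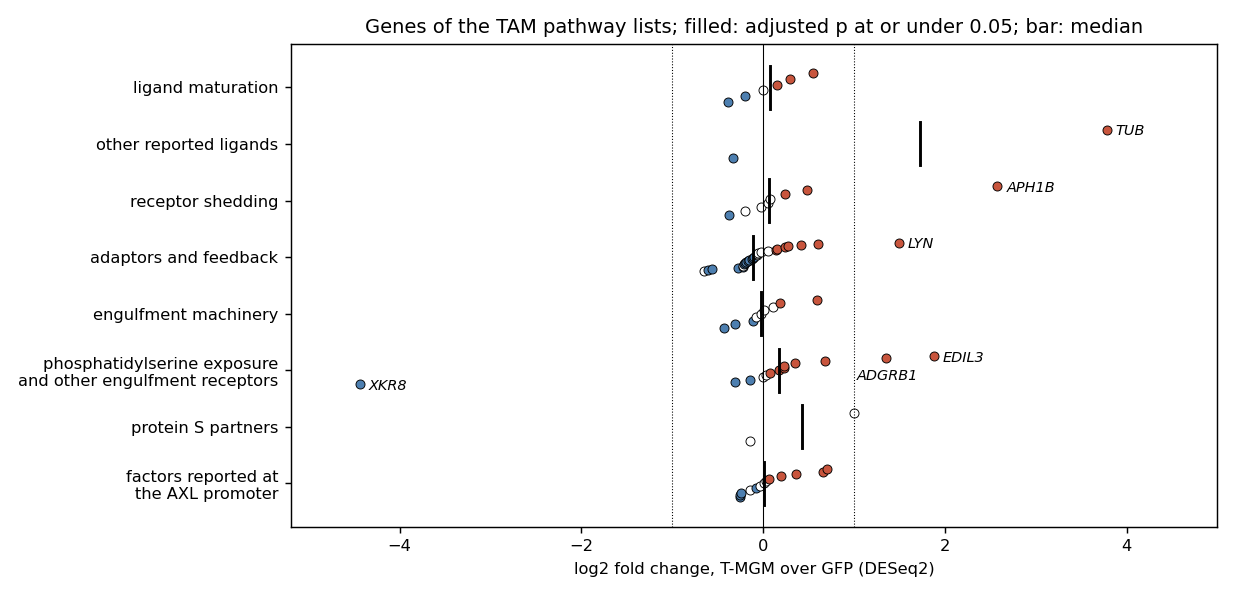
Log2 fold change (horizontal axis, T-MGM over GFP) of each tested gene in the 8 lists (rows); filled points passed an adjusted p of 0.05 (red higher, blue lower), open points did not, and black bars mark list medians. Most points lie within the dotted lines of a 2-fold change, and the 6 called genes are labelled, from XKR8 at -4.44 to TUB at 3.78.

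The genes closest in pattern to each member were found by the Euclidean distance of log2(normalized count + 1), centred on the GFP mean, over 6 libraries and 11652 genes. With only 2 groups, this measure mainly matches the size of the group difference and the order of libraries within it. Nearest to AXL were PDZRN3 (distance 0.228, from 1432 to 6534 mean normalized counts), PCDHGA12 (0.255) and CNKSR2 (0.343). MERTK was nearest to NDRG2 (0.197), TMEM185B (0.261) and ZNF256 (0.270). PROS1 lay nearest to SEC62 (0.0245), AGK (0.0372) and LONRF2 (0.0402), and TYRO3 to ZSWIM3 (0.0224), PDIA3 (0.0246) and POLA1 (0.0252). GAS6 was too low to be compared.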

How the data were processed

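Reads were trimmed by the authors with cutadapt 1.8.1 and aligned to GRCh38 with STAR 2.7.7a. Gene-level counts of reads with a unique alignment came from featureCounts, and the authors deposited them as whole numbers without scaling. The authors also deposited TPM values, for which the labels name RSEM 1.3.0. The labels name a library kit without strand information and the study's methods a strand-specific one, so antisense pairs are uncertain. The annotation release was not given in the sources used here; positions are from GENCODE release 44, and upstream sequences from RefSeq, which matched all 5 members.

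Counts of all genes were fitted in DESeq2 1.42.0 (R 4.3.3; size factors by the median of ratios, no term besides group, a local-regression dispersion trend, 2-sided Wald test, independent filtering at 0.05, Benjamini-Hochberg adjustment over all genes tested). A gene was called at an adjusted p at or under 0.05 with a change over 2-fold; the study's methods name DESeq2 and these thresholds but not the other settings. Limits of 95% use the DESeq2 SE. Sources did not state whether replicates were separate cultures, so p-values measure the spread between these libraries; no pair of replicates agreed within sampling noise.

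Alternatives were edgeR 4.0.16, TMM or total-count scaling, a minimum of 10 counts in 3 or more libraries, DESeq2 without its independent filter, a replicate block, leaving out each library, shrinkage of fold changes, limma 3.58.1 on log2 TPM (pseudocounts 1 and 0.1, a minimum of 0.5 TPM in 3 libraries or none), and lowess offsets (span 0.3) for GC content and length. On simulated counts of 28569 genes for the T-MGM against GFP comparison with 200 changed genes, DESeq2 recovered 100% and called 17 unchanged genes. Recovery was summarised over all changed genes and not by size of change or level. How well small changes, such as that of PROS1, or genes as low as GAS6 are detected was not tested.

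Members and lists were chosen with earlier results of these data known. List genes named are the 3 with the largest absolute fold change per list among those passing whose mean normalized count was 50 or more; genes alike in pattern are the 3 nearest to each member at 50 or more, among genes at 100 or more. 1 gene that this rule names is not reported here. A ligand ratio of GAS6 to PROS1 was not tested because GAS6 was at or near 0.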

Additional observations from a re-analysis of the deposited data

How the results depend on the processing

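AXL, MERTK and PROS1 kept their direction and passed the adjusted p under all 17 alternatives. AXL ranged from 1.41 to 2.32 and MERTK from 0.63 to 1.22 on the log2 scale, and MERTK was over 2-fold in 13 of 17. TYRO3 never passed (adjusted p of 0.0613 to 0.848) and reversed with total-count scaling (-0.021) and with the correction for GC content and length (-0.011). GAS6 could be given a value in 13 alternatives and passed in none; without GFP replicate 3 its fitted value moved from -3.30 to -0.92, and fitted values at such counts are not measured ratios.

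The number of genes called, 885 with 70.5% higher, was 207 with shrunken fold changes, and 133, 369 and 126 on TPM values with a pseudocount of 1, of 0.1, and of 1 without a filter, with 52.6%, 55.3% and 52.4% higher; the cause was not tested, beyond the pseudocount and shrinkage pulling low genes towards 0 by construction. The 55 list genes under the adjusted p became 35 on TPM without a filter; 47 of the 55 kept their sign in every fit and 26 passed in every fit. In normalized counts the rise of the AXL share was 16.8 percentage points in place of 13.6, and the log2 ligand to receptor ratio differed by -0.78 in place of -1.02. In TPM the log2 ratio of AXL to TYRO3 differed by 1.90 in place of 2.22, and that of MERTK to TYRO3 by 0.80 in place of 1.11.

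Deviations of same-numbered libraries had correlations of -0.00665, -0.0579 and 0.0291 over genes, and those of differently numbered libraries reached -0.089 and 0.0916. These values cannot show whether libraries with the same number were prepared together. With the replicate block 735 genes were called, and AXL (2.26), MERTK (1.145) and PROS1 (-0.35) passed while TYRO3 (0.03) did not. Depth limits GAS6, for which 3 counts equal at most 0.0856 CPM.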
